A study of Homo sapiens with 8 samples.

Results

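The 32 genes described here are NRF2 and antioxidant genes: the regulators NFE2L2, KEAP1, MAFG and SQSTM1 and 28 genes of glutathione, thioredoxin, iron and heme, NADPH and detoxification metabolism. They were taken from a list of symbols and looked up among the 19305 transcript accessions that were counted. After a filter on low counts 31 of the 32 were among the 14565 genes tested. AKR1B10 was not tested, with 3 reads over all 8 libraries.

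Polyadenylated RNA was sequenced in 4 groups of 2 libraries each. HEK293T, a transformed line from embryonic kidney, received sodium arsenite together with an siRNA that was either a control or directed against eIF2A, a factor able to deliver initiator tRNA to the ribosome. H9 cells, which are human embryonic stem cells, carried an shRNA that was likewise a control or directed against eIF2A, and no arsenite is named for them. Every HEK293T library was thus exposed to arsenite, so the response of these genes to arsenite itself was not measured, and line, arsenite and the kind of knockdown cannot be told apart between the lines. The labels number the libraries of a group as sets and do not say that they came from separate cultures. The p-values therefore measure the spread between these libraries, which may be technical. The fit estimates that spread from all 8 libraries of both lines together.

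NRF2, the protein encoded by NFE2L2, is a transcription factor held at a low level by KEAP1, an adaptor that hands it to a CUL3 ubiquitin ligase for destruction. Arsenite and other reactive compounds modify cysteines of KEAP1, NRF2 then escapes, pairs with a small MAF protein such as MAFG and binds antioxidant response elements near genes that make glutathione, reduce thioredoxin, store iron, break down heme and supply NADPH. HMOX1 and NQO1 are widely used readouts of this pathway. HMOX1 is also held down by the repressor BACH1, and ferritin is further set by iron at the level of translation.

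EIF2A itself fell in both lines. It had 17.5 and 18.3 CPM (reads per library size after scaling with edgeR's TMM factors, times 1000000) in the HEK293T controls against 5.58 and 5.98 with the siRNA, which is 32.2% of control. The H9 levels were 15.8 and 14.8 CPM in the controls against 5.03 and 4.67 with the shRNA, which is 31.7% of control. Between 21837052 and 32318668 reads were assigned to genes per library. The pluripotency markers, 10 of 10 tested, summed to 6911 and 6899 CPM in the H9 controls against 200.5 and 202.6 in the HEK293T controls, where NANOG, CRIPTO, DPPA4 and L1TD1 had no reads. The 5 embryonic kidney line markers summed to 168 and 176 CPM in the HEK293T controls and to 11.9 and 13.0 in the H9 controls. The HEK293T controls differed from each other more than the libraries of the other groups did, with a chi-square per degree of freedom of 4.91 against 1.35 to 1.8, where 1 is sampling noise.

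The antioxidant response element is written here as the letters TGACNNNGC, searched on both strands of RefSeq promoter windows that run from 250 bases before to 50 after a gene's start. Windows were matched for 25 of the 32 genes, 36 windows in all; ABCC3, AKR1B10, FTH1, GSR, HMOX1, PRDX1 and PRDX6 were not matched. The letters were present in 8 of the 36 windows (22.2%), in 7 genes, against 4687 of 35116 promoter windows of the same length (13.3%). The overlapping AP-1 letters TGACTCA or TGAGTCA were present in 2 of the 36 (5.56%) against 4.95% of all windows. One upstream match per start of each gene is printed here, for the letters of the element themselves, each with 15 bases on either side, the motif in capitals, and the position on GRCh38.p14 (the counts themselves were made on hg19).
KEAP1 chr19:10502779-10502817 (-): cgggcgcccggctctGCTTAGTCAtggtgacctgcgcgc
GCLM chr1:93909441-93909479 (-): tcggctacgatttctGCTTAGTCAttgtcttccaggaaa
TXNRD1 chr12:104286915-104286953 (+): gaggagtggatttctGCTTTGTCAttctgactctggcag
TXNRD1 chr12:104215665-104215703 (+): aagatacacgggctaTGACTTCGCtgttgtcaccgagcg
ME1 chr6:83431165-83431203 (-): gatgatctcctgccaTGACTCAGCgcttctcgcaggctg
PGD chr1:10398848-10398886 (+): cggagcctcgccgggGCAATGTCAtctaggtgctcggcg
EPHX1 chr1:225825261-225825299 (+): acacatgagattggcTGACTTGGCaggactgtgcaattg
KEAP1 and GCLM carry the letters TGACTAAGC, read on the opposite strand, 31 and 34 bases before their starts. ME1 has TGACTCAGC at 137 bases, which also holds the AP-1 letters. KEAP1 also holds TGACACGGC 54 bases before its start, and a TXNRD1 match, TGACGGAGC, begins 8 bases before a start and runs across it. Past the start, MGST1 holds TGACAAAGC at position 31 and ME1 holds TGACGGTGC at position 12. These matches are not printed in full. A match is a description of the letters in the window, and binding was not measured.

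The control groups of the lines already held these transcripts at different levels. Per kilobase of transcript, PRDX1, a peroxiredoxin that reduces peroxides, and FTH1, the ferritin heavy chain, led in the HEK293T controls at 962 and 951 CPM per kb, followed by GPX4 at 720.4 and FTL, the ferritin light chain, at 692. In the H9 controls FTL led at 3080 CPM per kb, followed by FTH1 at 1836, PRDX1 at 945 and TKT at 668. Of the 31 genes tested, 15 were higher and 13 lower in the H9 controls than in the HEK293T controls at an adjusted p under 0.05, the threshold used throughout, where 42.3% of all genes tested were higher and 41.2% were lower. The members' shares were 48.4% and 41.9%, near those of all genes.

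NQO1, a quinone reductase, and GSTM3, a glutathione transferase, showed the widest gaps among members above 1 CPM. NQO1 had 10.6 and 10.6 CPM in the HEK293T controls against 117 and 122 in the H9 controls, 11.2-fold higher in H9 (log2 difference 3.49 ± 0.059, adjusted p = 5.7e-34). FTL was 4.45-fold higher in H9. CAT, the peroxisomal catalase, went the other way, with 15.3 and 15.0 CPM in HEK293T and 1.40 and 1.33 in H9, 11-fold lower. GSTM3 was 11.3-fold lower in H9, at 5.97 and 6.71 CPM against 71.8 and 70.9. PRDX1 at 1139 and 1192 CPM in H9 and 1202 and 1173 in HEK293T did not pass the test (adjusted p = 0.42). AKR1C1, AKR1B10, ABCC2 and ABCC3 stayed under 1 CPM in every library.

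**Figure D1:**
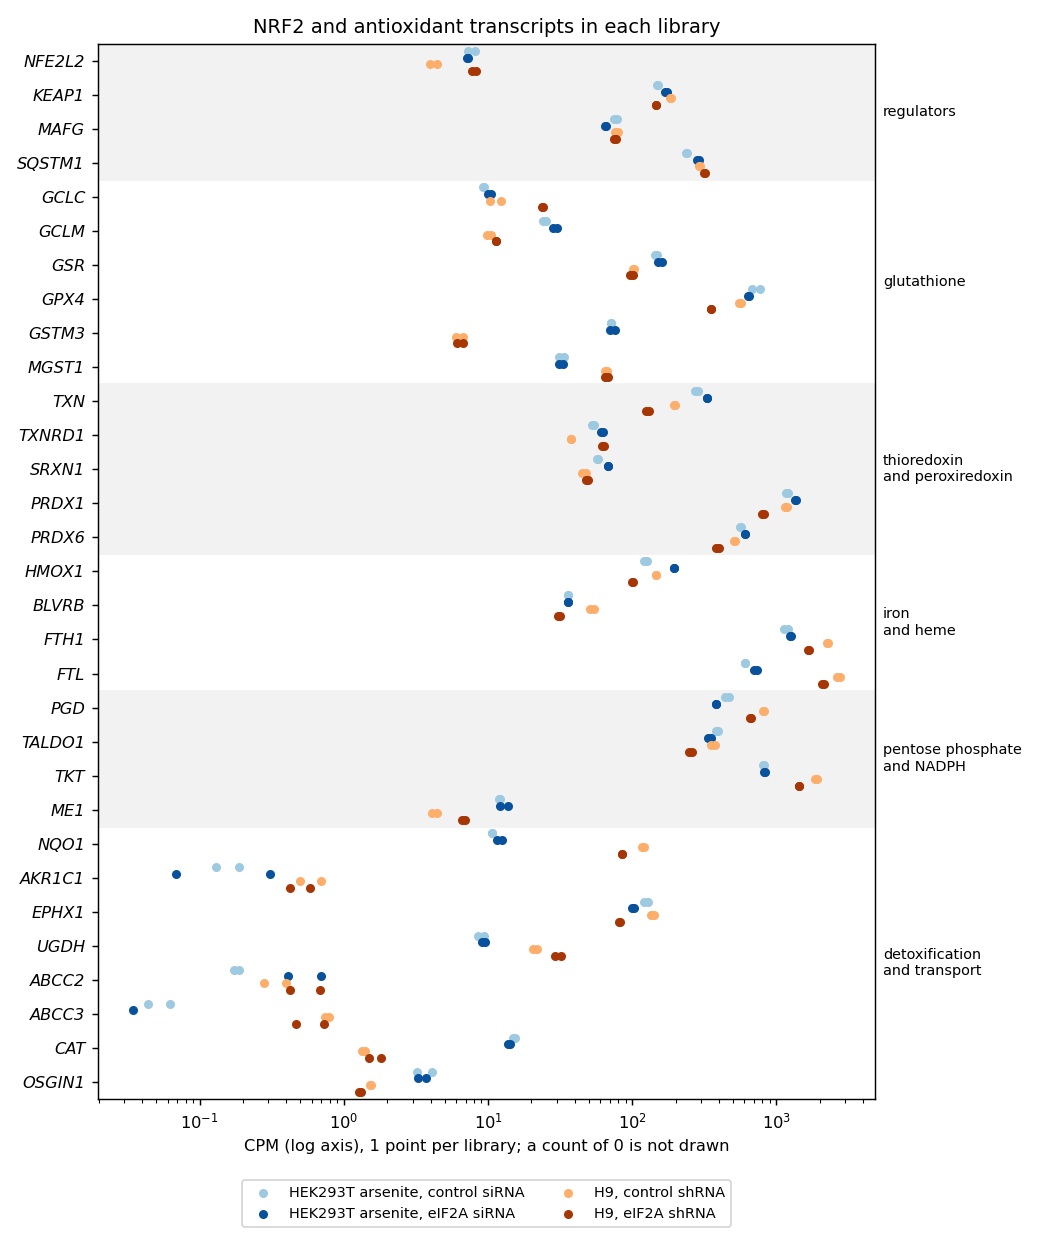
CPM of the 31 tested genes (log axis, 1 point per library, rows grouped by role) in HEK293T arsenite cells with control or eIF2A siRNA and in H9 with control or eIF2A shRNA. NQO1, FTL, CAT and GSTM3 separate the lines most clearly among the well-expressed genes, while within a line the knockdown and control points lie close together.

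In HEK293T under arsenite, eIF2A knockdown came with higher levels of HMOX1, of the 5 thioredoxin and peroxiredoxin genes and of the ferritin chains, and with lower levels of PGD, TALDO1 and EPHX1. Of the 31 genes tested, 12 rose (38.7%): KEAP1, SQSTM1, GCLM, TXN, TXNRD1, SRXN1, PRDX1, PRDX6, HMOX1, FTH1, FTL and ABCC2. Over all 14565 genes tested, 14.1% rose. Another 5 fell (16.1%), MAFG, GPX4, PGD, TALDO1 and EPHX1, where 14.7% of all genes fell. The remaining 14 did not pass the test. The members' median log2 fold change was 0.10, against -0.003 over all genes. Most shifts were small: among the 12 that rose, HMOX1 at 1.59-fold was the largest change of a gene above 1 CPM, and the other 10 above 1 CPM had log2 fold changes of 0.10 to 0.26. These came from 2 libraries a group, and leaving out the first eIF2A siRNA library took the count that rose from 12 to 9 and the median to 0.036. Reads assigned to no feature made up 15.59 and 17.68% in the controls and 14.98 and 14.95% with the siRNA, and the 5 kidney line markers (1 lower) summed to 168 and 176 against 153 and 153 CPM; their part in the members' changes was not tested. In bulk RNA, fewer cells of a kind and less RNA per cell cannot be told apart.

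In H9, as measured, eIF2A knockdown went with lower levels of the ferritin, peroxiredoxin and heme genes and of PGD, TALDO1 and TKT. It went with higher levels of a smaller number of genes. Of the 31 tested, 14 fell (45.2%): KEAP1, GPX4, TXN, PRDX1, PRDX6, HMOX1, BLVRB, FTH1, FTL, PGD, TALDO1, TKT, NQO1 and EPHX1. Another 6 rose (19.4%): NFE2L2, SQSTM1, GCLC, TXNRD1, ME1 and UGDH, the rise of SQSTM1 turning to -0.046 with median-of-ratios scaling. Over all genes 34.3% fell and 37.0% rose. The members' median was -0.24 against 0.024 over all genes, and -0.059 without the second eIF2A shRNA library. Summed over the 32 genes, CPM stood at 11690 and 11900 in the H9 controls and at 8982 and 9035 with the shRNA, while in HEK293T the sum stood at 7285 and 7505 in the controls and at 7814 and 7786 with the siRNA.

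Changes in H9 ran along the makeup of the transcripts. Over the 14494 tested genes with a known sequence, the log2 fold change in H9 had a Spearman correlation of -0.68 with transcript GC content and 0.45 with length, a description across genes that share the same 4 libraries. Over the 31 members the values were -0.61 and 0.64. In HEK293T the correlations with GC content were -0.1 over all genes and -0.24 over the members. The members themselves had a median GC content of 50.2% against 50.5% and a median length of 2253 nt against 3032 nt. Each knockdown was therefore also fitted with each library's GC and length trend removed, and both fits are described for H9. In that second fit the H9 correlation with GC content was -0.07 over all genes but 0.32 over the members. Over the members the correlation thus changed sign. Whether it differed from 0 over these 31 genes was not tested, and their values in this fit may still run with GC content. In HEK293T the members' correlation in the second fit was -0.22. With the trend removed, 5 members rose and 15 fell in H9, the median being -0.12, where 21.1% of all genes rose and 29.0% fell; in HEK293T 10 rose and 5 fell, where 14.9% rose and 12.9% fell.

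**Figure D2:**
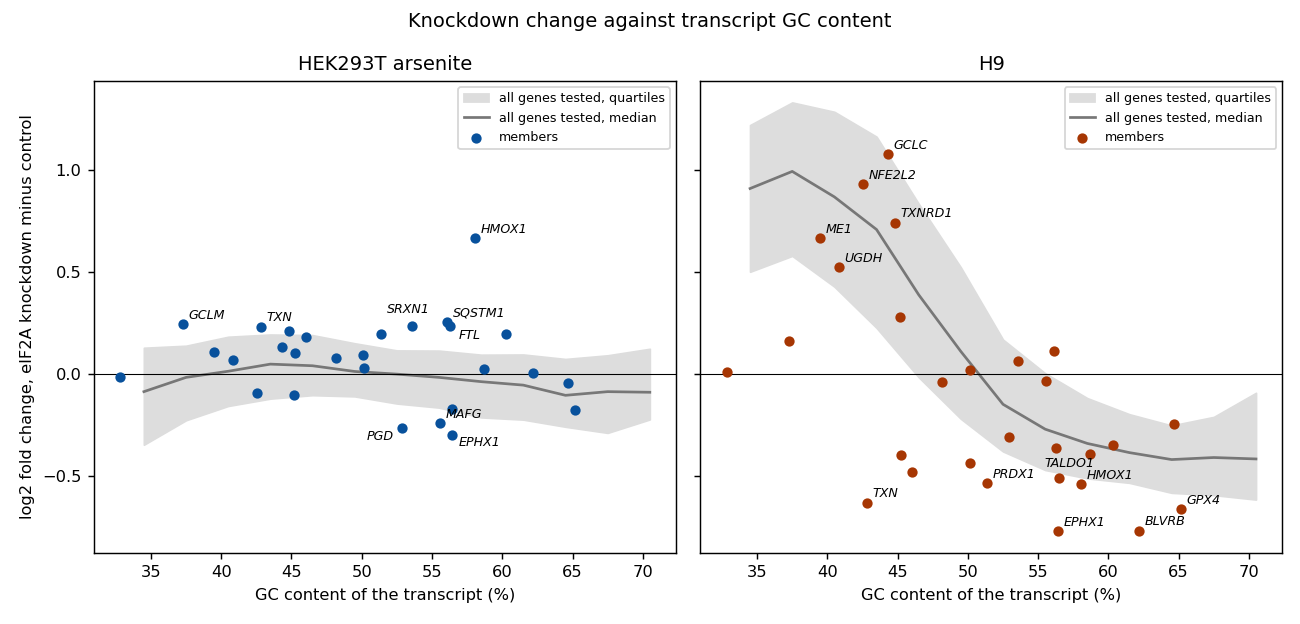
Log2 fold change with eIF2A knockdown (vertical axis) against GC content of the transcript (horizontal axis, %) in HEK293T arsenite cells (left) and H9 (right); points are 28 members, the line is the median of all genes tested per 3% of GC and the band their quartiles. In H9 the median of all genes runs from 0.99 at 36 to 39% GC to -0.42 at 63 to 66%; 14 members lie within the band, 11 below it, TXN and EPHX1 among them, and 2 above it, MGST1 lying outside the bins; ABCC2, ABCC3 and AKR1C1, with too few reads, are not drawn.

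Other quantities moved with the knockdown in H9 and are given as measured. Reads assigned to no feature made up 18.84 and 18.39% of the reads in the controls and 20.84 and 20.63% with the shRNA. Mesoderm and endoderm markers (6 of 8 tested, 2 higher and 1 lower) summed to 35.0 and 35.8 CPM in the controls and to 73.6 and 68.6 with the shRNA. Most of that sum was KDR, with a mean of 29.0 CPM in the controls and 66.5 with the shRNA, while FOXA2 fell. Fibroblast markers (6 of 8 tested, 3 higher and 1 lower) summed to 1011 and 1016 CPM against 886 and 898. Most of that sum was THY1, which fell from a mean of 791 to 593 CPM, while COL1A1, COL1A2 and FBN1 rose. Trophoblast markers (5 of 8 tested, 2 higher and 1 lower, ELF5 and HAND1 without reads) summed to 26.0 and 26.7 CPM against 17.8 and 16.8. Most of that was KRT7, which fell from a mean of 25.8 to 16.3 CPM, while TFAP2A and GATA2, both under 1 CPM in H9, rose. Neural markers (7 of 8 tested, 3 higher and 2 lower, NEUROD1 without reads) summed to 578 and 599 CPM against 638 and 627. That sum hid opposite changes: NES rose from a mean of 221 to 452 CPM, while TUBB3 fell from 352 to 164. Pluripotency markers summed to 6730 and 6837 CPM with the shRNA, against 6911 and 6899 in the controls, with 5 of 10 higher and 4 lower. They ranged from POU5F1 at 71.6% of control to L1TD1 at 201%. Of 6 erythroid markers 1 was tested, their sum was at most 2.01 CPM in any H9 library, and HBA1, HBB and HBG1 had no reads there. The 5 embryonic kidney line markers (2 higher, NEFM and NEFL) summed to 11.9 and 13.0 CPM in the controls against 19.9 and 20.6. The part of these in the members' changes was not tested.

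**Figure D3:**
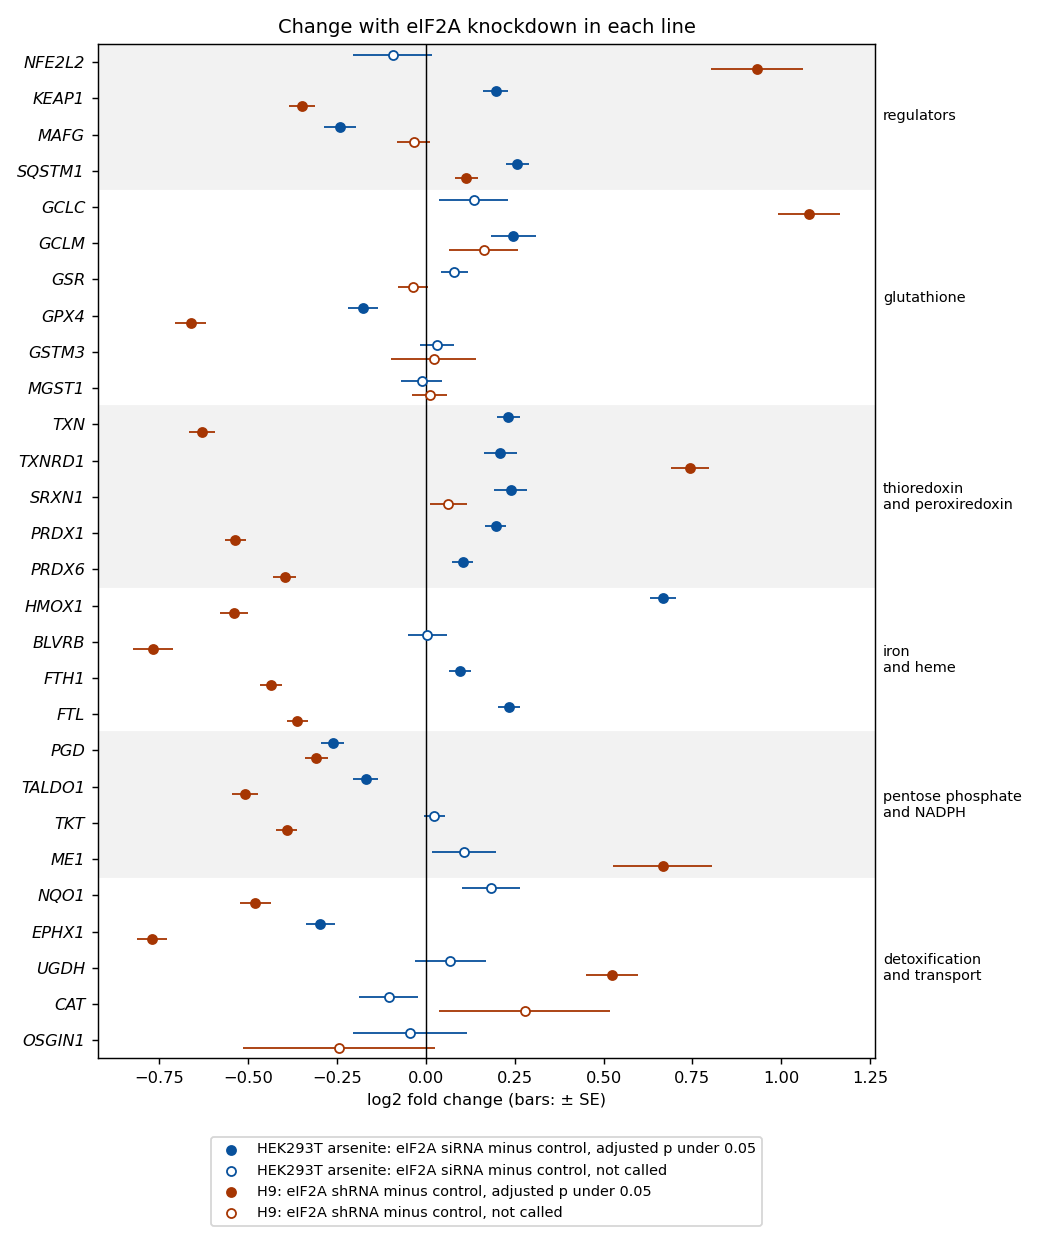
Log2 fold change with eIF2A knockdown ± SE (horizontal axis) for 28 members by role, HEK293T arsenite in blue and H9 in orange, 2 libraries per group; filled points have an adjusted p under 0.05 in edgeR's test. TXN, PRDX1, PRDX6, HMOX1, FTH1, FTL and KEAP1 lie to the right of 0 in HEK293T and to the left in H9; ABCC2, ABCC3 and AKR1C1, with an SE of 0.41 or more, are not drawn.

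Among the regulators, the transcript of NRF2 itself rose in H9 and did not pass the test in HEK293T. NFE2L2 had 8.19 and 7.32 CPM in the HEK293T controls against 7.28 and 7.15 with the siRNA, a log2 change of -0.094 ± 0.11 (adjusted p = 0.58). Levels in H9 were 4.43 and 3.95 CPM in the controls against 8.20 and 7.80 with the shRNA, a log2 change of 0.93 ± 0.13 (adjusted p = 1.5e-07). Both shRNA libraries lay above both controls, at a level close to that of HEK293T. With the GC and length trend removed the H9 change was 0.31 ± 0.14 and no longer passed (adjusted p = 0.058), while the difference between the lines, 1.02 ± 0.17 as measured, was 0.45 ± 0.17 and still passed (adjusted p = 0.033). This is the transcript, and NRF2 protein was not measured.

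KEAP1, the negative regulator of NRF2, moved in opposite directions in the lines. It rose from 152 and 148 CPM to 168 and 175 in HEK293T (log2 0.20 ± 0.035, adjusted p = 4.6e-05). In H9 it fell from 183 and 187 CPM to 146 and 145 (log2 -0.35 ± 0.036, adjusted p = 1.8e-10). The groups did not overlap in either line. The HEK293T rise was 0.25 with the trend removed, and the H9 value was -0.053, which did not pass (adjusted p = 0.21).

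SQSTM1, the autophagy receptor p62, which binds KEAP1 and is itself an NRF2 target, rose in HEK293T from 238 and 240.5 CPM to 289 and 282 (log2 0.26 ± 0.032, adjusted p = 1.1e-07). Levels in H9 were 291 and 297 CPM in the controls against 316 and 319.6 with the shRNA (log2 0.11 ± 0.032, adjusted p = 0.002), or 0.40 with the trend removed and -0.046 with median-of-ratios scaling. The direction in H9 thus depended on the scaling, and that in HEK293T did not under any scaling tried. MAFG, a small MAF partner of NRF2, fell in HEK293T by 0.24 on the log2 scale (adjusted p = 6.8e-05), and its H9 value of -0.035 did not pass, but rose by 0.31 with the trend removed and fell by 0.19 with median-of-ratios scaling.

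Among the glutathione genes, GCLC and GPX4 were called in H9 as measured, and GCLC, GCLM, GSR and MGST1 with the trend removed. GCLC, the catalytic subunit of glutamate-cysteine ligase, the rate-limiting enzyme of glutathione synthesis, had 12.3 and 10.3 CPM in the H9 controls and 23.5 and 24.3 with the shRNA, a 2.11-fold rise (log2 1.08 ± 0.087, adjusted p = 3.6e-13). It stayed called with the trend removed, at 0.46. In HEK293T it had 9.37 and 9.24 CPM in the controls against 10.4 and 9.95 with the siRNA and did not pass (adjusted p = 0.34). Its modifier subunit GCLM rose in HEK293T by a log2 fold change of 0.25 ± 0.064 (adjusted p = 0.0033), a call lost without the first eIF2A siRNA library (adjusted p = 0.083) and with DESeq2 (adjusted p = 0.057). In H9 GCLM had a value of 0.16 that did not pass, and of -0.77, which did, with the trend removed. In H9, GCLM was called lower only with the trend removed, where GCLC was called higher. Without that removal GCLM was at 0.003 with median-of-ratios scaling and at 0.233, called higher, with upper-quartile scaling. The 2 subunits were not tested against each other.

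GPX4, which reduces lipid peroxides with glutathione, fell in both lines. It had 674 and 769 CPM in the HEK293T controls against 645 and 633 with the siRNA (log2 -0.18 ± 0.042, adjusted p = 0.0026), the second control library lying well above the first; without that second control the value was -0.077 (adjusted p = 0.037). Levels in H9 were 553 and 564 CPM in the controls against 353 and 354 with the shRNA (log2 -0.66 ± 0.043, adjusted p = 1.2e-11). GPX4 has a GC content of 65.2%, and with the trend removed its H9 value was -0.082 and did not pass (adjusted p = 0.085). GSR, which regenerates reduced glutathione, and the transferases GSTM3 and MGST1 did not pass in either line, with log2 values from -0.012 to 0.080 in HEK293T and from -0.037 to 0.022 in H9. With the trend removed GSR (-0.29) and MGST1 (-0.42) fell in H9, as they did with median-of-ratios scaling (-0.20 and -0.15). Reads of GSTM3 can be split with closely related GSTM genes.

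All 5 thioredoxin and peroxiredoxin genes rose in HEK293T, with a median log2 fold change of 0.21. TXN, the small redox protein that reduces other proteins, had 272 and 286 CPM in the controls against 328 and 328 with the siRNA (log2 0.23 ± 0.033, adjusted p = 1.1e-06). TXNRD1, the reductase that recharges it, had 54.3 and 52.7 against 62.7 and 60.9 CPM (log2 0.21 ± 0.047, adjusted p = 0.00077). SRXN1, which repairs overoxidised peroxiredoxins, rose by 0.24 ± 0.046. PRDX1 had 1202 and 1173 CPM in the controls against 1367 and 1354 with the siRNA (log2 0.20 ± 0.030, adjusted p = 3.6e-06). PRDX6 had 562 and 565 against 608 and 602 CPM (log2 0.10 ± 0.030, adjusted p = 0.0088), the smallest rise of the 5. The knockdown libraries lay above both controls for each of them, a description of 2 libraries a group. The share of all genes that did so is not given here. The PRDX6 call was lost without the first eIF2A siRNA library (adjusted p = 0.089) and with the trend removed (log2 0.038, adjusted p = 0.39), and the other 4 stayed called under both.

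In H9 the same group split. TXN fell from 196 and 199 CPM to 125 and 129.9 (log2 -0.63 ± 0.037, adjusted p = 7.3e-17), and was further down with the trend removed, at -0.96. PRDX1 fell from 1139 and 1192 to 814 and 794 CPM (log2 -0.54 ± 0.030, or -0.30 with the trend removed). PRDX6 fell from 515 and 512 to 397 and 382 CPM (log2 -0.40 ± 0.031, or -0.71 with the trend removed). These 3 were called in both fits, and their transcripts have 43 to 51% GC, where the median of all genes in H9 ran from 0.71 (42 to 45% GC) to -0.15 (51 to 54%). TXNRD1 rose from 37.4 and 37.6 to 64.1 and 61.3 CPM (log2 0.74 ± 0.053, adjusted p = 1.2e-14), which became 0.12 and did not pass with the trend removed (adjusted p = 0.06). SRXN1 had a value of 0.063 that did not pass and rose by 0.19 with the trend removed.

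Among the iron and heme genes, HMOX1 had the largest change of any well-expressed member in HEK293T. HMOX1, heme oxygenase 1, which opens heme and releases its iron, had 127 and 119.9 CPM in the arsenite controls against 196 and 196 with the eIF2A siRNA. That is a 1.59-fold rise (log2 0.67 ± 0.037, adjusted p = 2.6e-15), with the knockdown libraries almost identical to each other and well above both controls. Levels in H9 were 147 and 146 CPM in the controls against 102 and 99.5 with the shRNA (log2 -0.54 ± 0.039, adjusted p = 2.6e-14). The HEK293T rise was 0.70 with the trend removed, while the fall in H9 shrank to -0.13 and still passed (adjusted p = 0.0042).

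BLVRB, a biliverdin reductase, did not pass in HEK293T. It had 36.1 and 35.6 CPM in the controls and 36.1 and 35.8 with the siRNA (log2 0.004 ± 0.055). In H9 it fell from 54.2 and 51.1 to 30.5 and 31.4 CPM (log2 -0.77 ± 0.056, adjusted p = 2.8e-14), or by 0.15 on the log2 scale with the trend removed (adjusted p = 0.024).

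The ferritin chains, which form the iron storage shell, had a small rise in HEK293T and fell in H9. FTL had 605 and 609.5 CPM in the HEK293T controls against 697 and 733 with the siRNA (log2 0.23 ± 0.031, adjusted p = 3.2e-07). FTH1 had 1127 and 1211 against 1258 and 1241 CPM (log2 0.096 ± 0.031, adjusted p = 0.018), and its call was lost without the first control library (adjusted p = 0.19), the first siRNA library (0.14) or the second siRNA library (0.057), and with the trend removed (log2 0.044). The FTL call held with any of the 8 libraries left out. In H9 FTL fell from 2649 and 2759 to 2074 and 2134 CPM (log2 -0.36 ± 0.030, adjusted p = 8.2e-13) and FTH1 from 2277 and 2235 to 1661 and 1675 CPM (log2 -0.44 ± 0.031, adjusted p = 1.1e-14). With the trend removed FTH1 still fell (-0.28), but FTL rose by 0.16 (adjusted p = 3.4e-05). Both genes have many near-identical pseudogene copies, and reads aligned to several places were set aside, so their levels are less certain. The summed CPM of the 4 iron and heme genes was 5127 and 5191 in the H9 controls and 3867 and 3940 with the shRNA.

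Of the 4 pentose phosphate and NADPH genes, 2 fell in HEK293T and the other 2 did not pass. PGD, 6-phosphogluconate dehydrogenase, which makes NADPH in the oxidative branch of the pentose phosphate pathway, fell from 443 and 472 to 381 and 382 CPM in HEK293T (log2 -0.26 ± 0.032, adjusted p = 9.2e-08). Its H9 level fell from 827 and 811 to 656 and 667 CPM (log2 -0.31 ± 0.032, adjusted p = 1.3e-10). PGD was called lower in both lines and in both fits, at -0.28 and -0.10 with the trend removed, and the difference between the lines did not pass as measured (-0.046 ± 0.045, adjusted p = 0.4) but did with the trend removed (0.17 ± 0.043, adjusted p = 0.0011), HEK293T falling more.

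TALDO1, transaldolase, fell from 379.7 and 396 to 352 and 338 CPM in HEK293T (log2 -0.17 ± 0.035, adjusted p = 0.00024). Its H9 level fell from 351 and 374 to 248 and 261 CPM (log2 -0.51 ± 0.036), but by only 0.067 on the log2 scale with the trend removed, which did not pass (adjusted p = 0.095). TKT, transketolase, had 812 and 825 against 825 and 838 CPM in HEK293T and did not pass (adjusted p = 0.6). Its H9 level fell from 1861 and 1919 to 1444 and 1437 CPM (log2 -0.39 ± 0.029, or -0.11 with the trend removed, called in both fits). ME1, the cytosolic malic enzyme, another source of NADPH, rose in H9 from 4.10 and 4.44 to 6.65 and 6.91 CPM (log2 0.67 ± 0.14, adjusted p = 6.2e-05). Its value was -0.13 and did not pass with the trend removed (adjusted p = 0.45), and in HEK293T ME1 had 12.0 and 11.9 against 13.7 and 12.0 CPM and did not pass.

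NQO1, a classical NRF2 target, did not pass the test in HEK293T, where HMOX1 rose. It had 10.6 and 10.6 CPM in the controls against 11.6 and 12.5 with the siRNA, both siRNA libraries above both controls (log2 0.18 ± 0.082, adjusted p = 0.092). In H9 it fell from 117 and 122 to 85.5 and 85.5 CPM (log2 -0.48 ± 0.043, adjusted p = 5.5e-12), and further with the trend removed, to -0.88. The fall in H9 was thus called in both fits.

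EPHX1, microsomal epoxide hydrolase, fell from 121 and 128 to 103 and 99.6 CPM in HEK293T (log2 -0.30 ± 0.040, adjusted p = 5.2e-07), the largest fall of a well-expressed member there. Its H9 level fell from 135 and 142 to 82.0 and 80.6 CPM (log2 -0.77 ± 0.043, adjusted p = 2e-17), or -0.41 with the trend removed, called in both fits. UGDH, which makes UDP-glucuronate for conjugation, had 9.41 and 8.48 against 9.59 and 9.05 CPM in HEK293T and did not pass. In H9 UGDH rose from 21.9 and 20.6 to 29.3 and 31.9 CPM (log2 0.52 ± 0.073, adjusted p = 8.9e-08) and fell with the trend removed (-0.23, adjusted p = 0.0069).

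The other detoxification genes were scarce or did not pass. ABCC2, an export pump for conjugates, had 4 and 6 reads in the HEK293T controls and 12 and 20 with the siRNA, and 6, 8, 11 and 16 reads in H9. Its HEK293T call (log2 1.56 ± 0.53, adjusted p = 0.023) was lost without the first control (adjusted p = 0.071), the second control (0.1) or the second siRNA library (0.26). AKR1C1, an aldo-keto reductase whose reads can be split with its close relatives, had 2 to 15 reads per library, and ABCC3, another pump, had 0 to 19. In H9 AKR1C1 had 15 and 10 reads in the controls and 15 and 10 with the shRNA. It did not pass as measured (log2 -0.24 ± 0.47, adjusted p = 0.65). With the trend removed it was called lower (log2 -1.18 ± 0.47, adjusted p = 0.035), a call that rests on these few reads and on the trend offset. CAT had log2 values of -0.10 and 0.28 and OSGIN1, an oxidative stress growth inhibitor, -0.045 and -0.24, none of which passed.

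**Figure D4:**
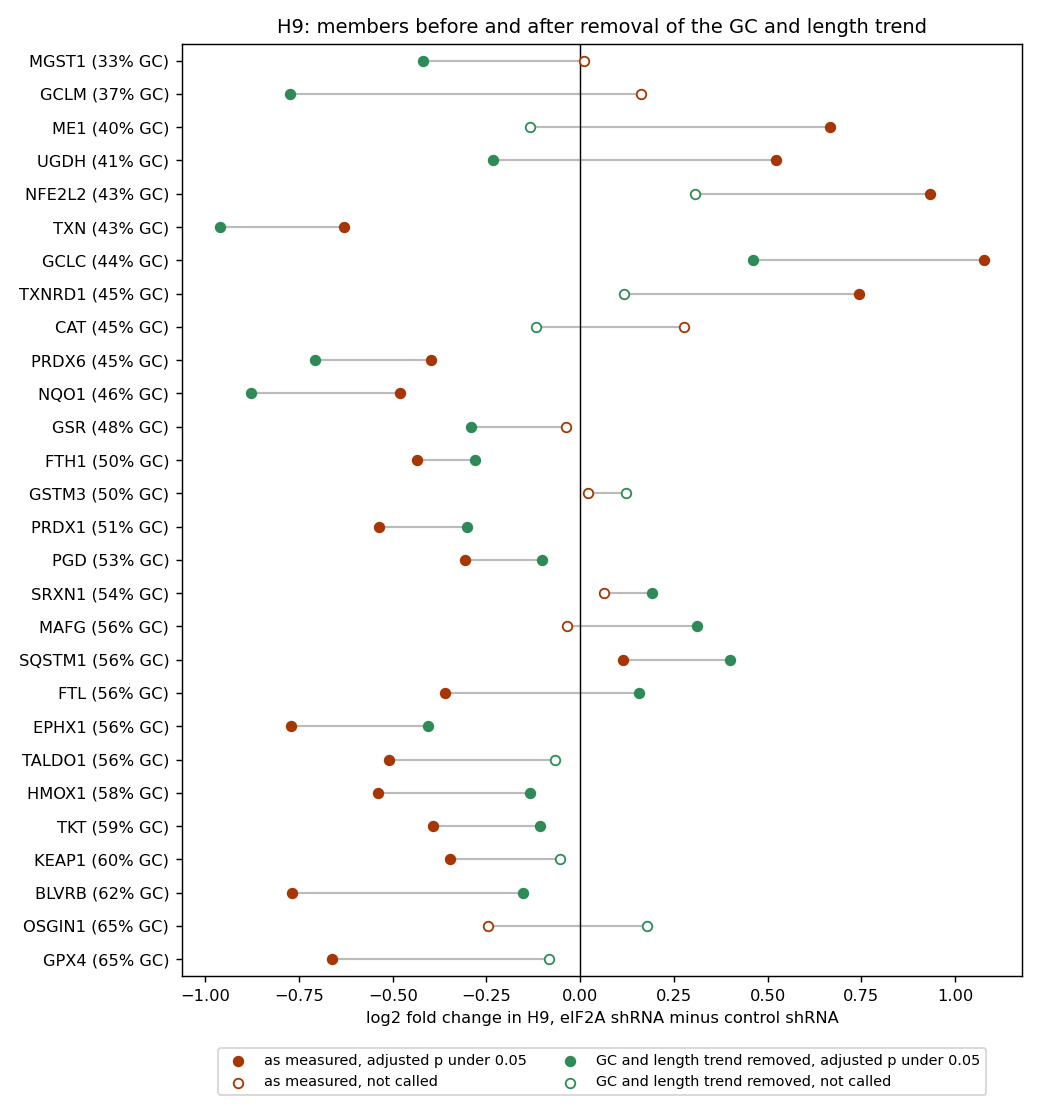
Log2 fold change in H9, eIF2A shRNA minus control shRNA (horizontal axis), for 28 members ordered by GC content, as measured and with each library's GC and length trend removed; filled points have an adjusted p under 0.05. Low-GC genes move left and high-GC genes move right when the trend is removed: GCLM goes from 0.16 to -0.77, FTL from -0.36 to 0.16, and TXN, NQO1 and PRDX6 move further left; ABCC2, ABCC3 and AKR1C1 are not drawn.

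Set side by side, the calls crossed in a part of the list. As measured, 7 genes (22.6% of the 31) rose in HEK293T and fell in H9: KEAP1, TXN, PRDX1, PRDX6, HMOX1, FTH1 and FTL. Of all genes tested, 5.81% did so. Another 2 (6.45%), SQSTM1 and TXNRD1, were higher in both, where 5.19% of all genes were, and 4 (12.9%), GPX4, PGD, TALDO1 and EPHX1, were lower in both, where 8.74% were. With the trend removed, GCLM, TXN, PRDX1 and HMOX1 rose in HEK293T and fell in H9, SQSTM1, SRXN1 and FTL rose in both, PGD and EPHX1 fell in both, and MAFG fell in HEK293T and rose in H9. These 4, 3, 2 and 1 genes are 12.9, 9.68, 6.45 and 3.23% of the members, against 7.15, 2.55, 5.07 and 2.8% of all genes. Of the 20 calls in H9, 12 stayed in the same direction with the trend removed. They were SQSTM1 and GCLC higher, and TXN, PRDX1, PRDX6, HMOX1, BLVRB, FTH1, PGD, TKT, NQO1 and EPHX1 lower. The share of all H9 calls that did so is not given here, so this count cannot set the members apart from other genes.

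The difference between the knockdown responses, H9 minus HEK293T, was tested in the same fit. It was called positive for 6 members (19.4%) and called negative for 15 (48.4%). Of all genes tested, 31.1% were called positive and 27.0% negative. Under median-of-ratios scaling 42.5% of the genes called were positive against 53.5% as scaled here, and under upper-quartile scaling 60.2%. As measured, HMOX1 had the most negative difference of a member called, -1.21 ± 0.054 (adjusted p = 5.6e-19), followed by TXN at -0.86, BLVRB at -0.77 and PRDX1 at -0.73. NFE2L2 at 1.02 and GCLC at 0.94 were the most positive of those called. With the trend removed 5 members were called positive and 11 negative, where 17.6% and 24.9% of all genes were. The most negative of those called were then TXN at -1.11, GCLM at -1.07, NQO1 at -1.01 and HMOX1 at -0.83, and GCLM, GSR, MGST1 and PGD were called with the trend removed and not as measured. Line, arsenite and siRNA or shRNA differ together in this contrast.

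Beyond the 32, a list of 92 other genes of the same processes held 89 that were tested (GSTT2B, FTMT and AKR1C2 were not). In HEK293T 17 rose (19.1%) and 15 fell (16.9%), with a median log2 fold change of 0.012, near the 14.1% and 14.7% of all genes. The 6 with the smallest p there were RBX1, a subunit of the ligase that destroys NRF2, which rose from 64.7 and 59.3 to 85.1 and 88.9 CPM (log2 0.49 ± 0.048, adjusted p = 8.3e-10), GLO1, glyoxalase 1 (0.27), ADH5, which clears formaldehyde bound to glutathione (0.29), and, lower, the stress gene SESN2 (-0.30), the transferase GSTK1 (-0.37) and the porphyrin transporter ABCB6 (-0.48). In H9 24 rose (27.0%) and 49 fell (55.1%), with a median of -0.27, where 37.0% and 34.3% of all genes did; with the trend removed 14 rose and 41 fell, 15.7% and 46.1%, against 21.1% and 29.0% of all genes. The 6 with the smallest p in H9 included TFRC, the transferrin receptor that brings iron into the cell, which rose from 20.7 and 19.3 to 66.5 and 68.0 CPM (log2 1.75 ± 0.060, adjusted p = 7.1e-23), or by 0.91 with the trend removed. CUL3, the scaffold of the ligase that KEAP1 serves, rose by 1.38 (0.33 with the trend removed) and UGP2, which makes UDP-glucose, by 0.92 (0.27). RBX1, not among these 6, fell in H9 where CUL3 rose (log2 -0.575, or -0.535 with the trend removed). GSTP1, PRDX2 and MGST3 fell by 0.61, 0.62 and 0.84 on the log2 scale, of which GSTP1 (-0.012) and PRDX2 (-0.056) did not pass with the trend removed, while MGST3 did (-0.51).

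Among the genes with an upstream TGACNNNGC match, in HEK293T KEAP1, GCLM and TXNRD1 rose, PGD and EPHX1 fell, and ME1 did not pass. In H9 TXNRD1 and ME1 rose, KEAP1, PGD and EPHX1 fell, and GCLM did not pass. GCLM, PGD and EPHX1 fell in H9 once the trend was removed, and KEAP1, TXNRD1 and ME1 did not pass. The pattern over these 6 genes is a description of the windows that could be matched, which do not include HMOX1.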

How the data were processed

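TRIzol extracts went into TruSeq stranded mRNA libraries, per the labels' protocols. The submitters' processing notes name cutadapt, STAR 2.5.2b and hg19. The deposited values are raw read counts per RefSeq accession, not normalized, since they are whole and their totals differ. Which program counted the reads, and with which strand setting, is not given in the sources used here; an overlapping antisense gene may share counts. The 5 special counters entered neither library sizes nor tests: reads with no feature were 14.95 to 20.84% of those listed, ambiguous reads 0.76 to 0.94% and reads aligned to several places 4.11 to 4.54%. Of the 19305 accessions 18884 were named from a RefSeq table and 226 from GENCODE, and 195 had no name. The counts rest on hg19 and the promoter windows on GRCh38.p14, so positions are given for the printed promoter matches alone, on GRCh38.p14.

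The counts went through edgeR 4.0.16 (R 4.3.3): filterByExpr, TMM, 4 group means over all 8 libraries (4 residual degrees of freedom), robust quasi-likelihood F test, two-sided, Benjamini-Hochberg adjustment over 14565 genes, called under 0.05. SE is the absolute log2 fold change divided by the square root of F. The trend fit used offsets from natural splines with 5 degrees of freedom each for GC content and log2 length, per library against the mean of its line; 19074 accessions had both. The fits were also run on simulated counts with known changes, and the outcome is not reported here. Alternatives were median-of-ratios and upper-quartile scaling, no filter, DESeq2 1.42.0, the 4 libraries of a line alone, a block for the set number, single libraries left out, and trend removal with and without the block.

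The members, the lists and the markers were chosen with earlier results of these data known. Values in every library are given for members called with an absolute log2 fold change of at least 0.25 in a knockdown contrast, and for NFE2L2, KEAP1, HMOX1 and NQO1; of the 92 other genes, the 6 with the smallest p in each line are named. Values of GCLM, SRXN1, MAFG, CAT and GSTM3 were added after they were seen.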

Additional observations from a re-analysis of the deposited data

Results flagged for a closer look

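The response to eIF2A knockdown differed between H9 and HEK293T under arsenite for 21 of the 31 members, by the test of the difference itself in edgeR (H9 minus HEK293T, log2). That is 67.7% of the members, 19.4% positive and 48.4% negative, where 58.1% of all genes were called, 31.1% positive and 27.0% negative. With the trend removed 16 members (51.6%) were called, where 42.5% of all genes were. Line, arsenite and the kind of knockdown cannot be told apart in it.

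In 11 genes the difference was called in the same direction with the GC and length trend removed. The shares of all genes that kept or lost their call in this way are not given here, so these counts describe the members alone. HMOX1 differed by -1.21, TXN by -0.86, PRDX1 by -0.73, NQO1 by -0.66, KEAP1 by -0.54, FTH1 by -0.53, PRDX6 by -0.50 and TKT by -0.42. NFE2L2 differed by 1.02, GCLC by 0.94 and MAFG by 0.21.

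In 9 genes it was not called with the trend removed. As measured, BLVRB differed by -0.77, FTL by -0.60, GPX4 by -0.48, EPHX1 by -0.47, TALDO1 by -0.34, SRXN1 by -0.17, ME1 by 0.56, TXNRD1 by 0.54 and UGDH by 0.45. SQSTM1 differed by -0.14 as measured and by 0.12 with the trend removed (adjusted p = 0.022), a change of sign. Called with the trend removed alone were GCLM at -1.07, MGST1 at -0.52, GSR at -0.33 and PGD at 0.17.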

How the results depend on the processing

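Of 986 member values under the alternative settings, 900 kept their direction and their side of the threshold. Another 25 lost a call, 13 gained one and 48 changed sign, and the cause was not tested. Of the 986, 496 came from fits with 1 library left out. Those fits count both lines, also the line that kept all its libraries, so the pooled count is a weak measure of stability. With the trend removed, 40 values stayed the same, 12 changed sign, 7 lost a call and 3 gained one. Genes called in HEK293T numbered 4182, or 3679 when its 4 libraries were fitted alone. With DESeq2, which gave no adjusted p for 3389 genes, 2742 were called. With 1 library left out they ranged from 2903 to 4079 in HEK293T and from 9522 to 10597 in H9 (10380 in all libraries), and members that rose in HEK293T from 9 to 12. In H9 the median over all genes was 0.024, -0.13 with median-of-ratios scaling and with DESeq2, and 0.095 with upper-quartile scaling; in the control comparison upper-quartile scaling put it at -0.16, and for the difference between lines the 2 scalings put it at -0.11 and 0.13. The members' H9 median was then -0.40, -0.41 with DESeq2 and -0.12 with the trend removed. Median-of-ratios scaling and DESeq2 turned these H9 values: GSTM3 to -0.137 and -0.138, SQSTM1 to -0.046 in both, MGST1 to -0.149 and -0.15 and SRXN1 to -0.096 in both. Median-of-ratios scaling called 5 members higher and 17 lower in H9, MGST1, GSR (-0.196) and MAFG (-0.194) being added, and upper-quartile scaling 8 and 14, with GCLM (0.233) and SRXN1 (0.134) added. Upper-quartile scaling turned BLVRB in HEK293T to -0.007 and, in H9, GSR to 0.034 and MAFG to 0.036.

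Removing the trend turned, in HEK293T, GSTM3 to -0.011, MGST1 to 0.099 and OSGIN1 to 0.003 and, in H9, FTL to 0.158, ABCC2 to -0.027, MGST1 to -0.42, CAT to -0.118, GCLM to -0.774, ME1 to -0.134, UGDH to -0.233, MAFG to 0.312 and OSGIN1 to 0.178. With the replicate block as well these were -0.01 and 0.091 for GSTM3 and MGST1 in HEK293T and, in H9, 0.158, -0.028, -0.421, -0.119, -0.774, -0.134, -0.234, 0.313 and 0.179 in the same order. The trend was removed within each line, so the control comparison has no such value. Leaving out 1 library gave values on both sides of 0 for MGST1 (-0.076 to 0.045), OSGIN1 (-0.234 to 0.121), AKR1C1 (-1.19 to 0.881), BLVRB (-0.005 to 0.016), UGDH (-0.012 to 0.139) and GSTM3 (-0.029 to 0.092) in HEK293T and for GSTM3 (-0.063 to 0.106), AKR1C1 (-0.497 to 0.033), MAFG (-0.075 to 0.005) and MGST1 (-0.03 to 0.048) in H9, none of them called there. GSR gained a call in HEK293T without the second siRNA library (0.131, adjusted p = 0.044), and no H9 call of a member changed with a library left out.

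The set numbers pair no samples by the labels, and same-numbered deviations correlated at -0.124 in HEK293T and -0.033 in H9 over 8243 genes. With the set number as a replicate block 3847 genes were called in HEK293T and 10281 in H9; among members FTH1 lost its HEK293T call (log2 0.097, adjusted p = 0.052), as it did with the 4 HEK293T libraries alone (0.099, 0.081). Pairing the HEK293T sets crosswise, an alternative chosen after seeing the data, called 2261 genes higher and 2310 lower. Genes under 1 CPM (AKR1C1, ABCC2, ABCC3) had standard errors of 0.41 to 1.4, so changes the size of those in the other members were not detectable for them at this depth. Larger values were called on few reads for ABCC2 in HEK293T (1.56) and, with the trend removed alone, for AKR1C1 in H9 (-1.18).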
